A study of Drosophila melanogaster with 20 samples.

Results

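The cytochrome P450 genes of Drosophila melanogaster were examined in RNA from adult male heads, taken as every gene whose symbol is Cyp followed by a digit, together with Cpr, which encodes the P450 reductase, and the ecdysone P450 symbols phm, dib, sad and shd. The rule gave 78 of the 9831 genes tabulated. One of them, Cyp1, carries a matching symbol but encodes a cyclophilin (a peptidyl-prolyl isomerase) and no P450, so it is set apart, which leaves 77 members. These are 76 P450 rows and Cpr. Of the 4 ecdysone symbols, 1 (shd) matched; phm, dib and sad were not analysed here. By family name, 34 members belong to clan 3 (Cyp6, Cyp9, Cyp28, Cyp308, Cyp309, Cyp317), 28 to clan 4 (Cyp4, Cyp311, Cyp312, Cyp313, Cyp318), 10 to the mitochondrial clan (Cyp12, Cyp49, Cyp301, shd) and 4 to clan 2 (Cyp18, Cyp303, Cyp304, Cyp305). Cyp6a15Psi, Cyp6t2Psi and Cyp9f3Psi, 3 of the 76, bear pseudogene names in the table.

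The study compared the effect of ageing between wild-type flies and flies labelled chm/+. The 20 libraries are 5 of midlife chm/+, 6 of young chm/+, 4 of midlife wild type and 5 of young wild type, where midlife flies were aged 22 to 23 days and young flies 7 days. Every library was made from polyadenylated RNA of 25 to 30 pooled male heads, the males coming from mixed-sex populations; the labels name neither the chm allele nor the background strain. The product of chm (chameau) is a MYST-type histone acetyltransferase, and chm/+ denotes 1 mutant copy.

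P450 enzymes are haem proteins that insert an oxygen atom into their substrate. Most sit in the endoplasmic reticulum and receive electrons from the reductase Cpr, whereas those of the mitochondrial clan are served by adrenodoxin-type proteins. Insect P450s make and break down the moulting hormone ecdysone, produce cuticular hydrocarbons, and oxidize plant toxins, drugs and insecticides, with clan 3 and clan 4 holding most of the enzymes that respond to foreign compounds. Most members of the family have no assigned substrate.

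Values are normalized counts that the authors had scaled to a common library size (27572012 to 30470376 per library). Log2 changes were taken on log2(value + 14.48), which understates the change of low genes, and a gene was called, and is said to have risen or fallen, at an adjusted p under 0.05 over all 9831 genes (limma). Nothing in the sources says whether replicate libraries came from separate cultures, so p-values measure the spread between these libraries, which may be partly technical. chm stood at 336 ± 22.0 in midlife chm/+ heads (SD, n = 5), against 613 ± 46.3 in midlife wild type (SD, n = 4), and at 321 ± 24.6 in young chm/+ heads (SD, n = 6), against 615 ± 36.6 in young wild type (SD, n = 5), with no overlap between genotypes. The head genes checked were high in every library, with the rhodopsin gene ninaE at 1020000 or more and the neuronal gene nSyb at 21640 or more. Library columns carry a group but no tie to a single listed sample, so libraries are called by column name: CHMo (midlife chm/+), CHMy (young chm/+), 2uo (midlife wild type) and 2uy (young wild type). The first 10 and the last 10 columns of the table each hold all 4 groups; no batch is labelled, but P450 levels differed between these column sets, as described next.

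The summed level of the 76 P450 rows differed more between column sets than between ages or genotypes. It ran from 5598 to 6505 CPM of the normalized counts in the 10 libraries of the second set and from 4166 to 5402 CPM in the 10 of the first, with no overlap. In a model with the set as a term, 37 members were higher and 3 lower in the second set, with a median log2 difference of 0.18, whereas over all genes 2338 were higher and 2413 lower. By group, the sum was 5812 ± 577 CPM in midlife chm/+ heads (SD, n = 5), against 5464 ± 464 in young chm/+ heads (SD, n = 6). In wild type it was 5636 ± 600 CPM at midlife (SD, n = 4), against 4943 ± 767 in young heads (SD, n = 5). Each of these pairs of groups overlapped. Within the first set, the mean sum was 5232 in midlife chm/+ and 5063 in young chm/+ libraries, and 5170 in midlife and 4404 in young wild type. Within the second set, it was 6200 in midlife chm/+ and 5865 in young chm/+ libraries, and 6101 in midlife and 5752 in young wild type. The mean was thus higher at midlife in both genotypes and both sets. No test was made on the sum.

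**Figure D1:**
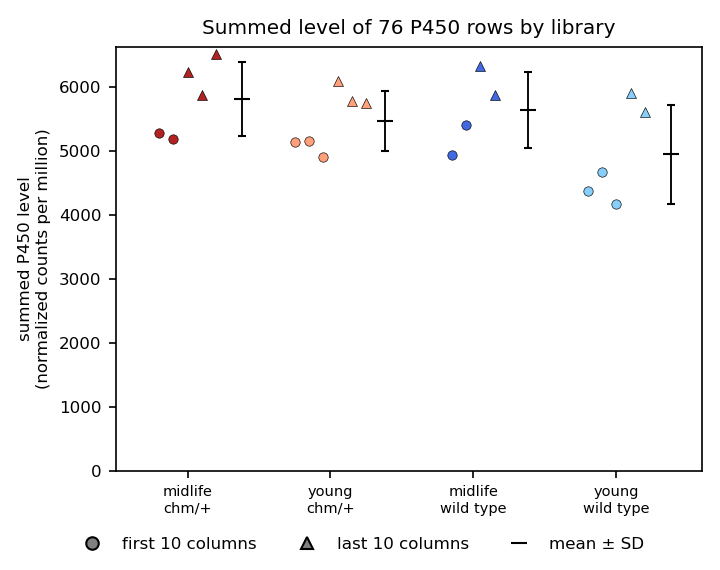
Summed level of the 76 P450 rows in CPM of the normalized counts (vertical axis, from 0) for each library, by group; circles are libraries of the first 10 columns, triangles those of the last 10, and bars give mean ± SD. The triangles (5598 to 6505) all lie above the circles (4166 to 5402), and the 4 groups overlap.

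Levels of different genes were set beside each other only per kilobase of coding sequence, for the 74 P450 genes with a coding length, as the mean over the 20 libraries. The family spanned a wide range, with a median of 534 normalized counts per kb, 26 genes at 1000 or more and 16 under 100. The 5 highest were Cyp313a1 (11790 ± 3800 per kb, SD, n = 20), Cyp28d1 (11740 ± 1940), Cyp6g1 (10590 ± 1000), Cyp6d5 (6472 ± 1180) and Cyp6w1 (4824 ± 1510). Cyp6g1 is known for resistance to DDT and neonicotinoids when overexpressed. The first 3 of these supplied 33.0% of all P450 normalized counts and the first 10 genes 62.7%. At the other end stood Cyp313a4 (21.4 ± 8.27 per kb), Cyp4ad1 (16.6 ± 10.8) and Cyp304a1 (13.7 ± 9.31). Cpr stood at 3571 ± 247 per kb, and Cyp1, the cyclophilin gene, at 31840 ± 3320. Of the 5 highest genes, Cyp6w1 was called in a comparison; with the column set as a term Cyp313a1 and Cyp6d5 were called as well, with age in chm/+ and with genotype in young heads.

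**Figure D2:**
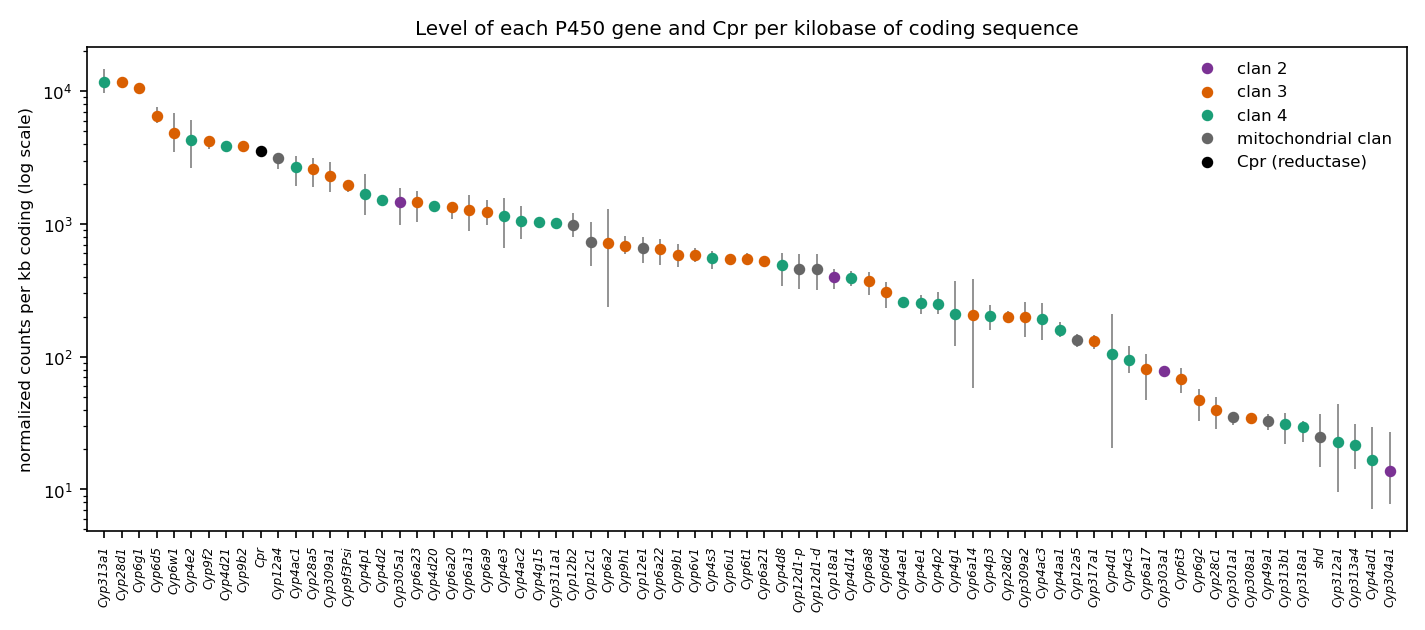
Mean of the 4 group means for 74 P450 genes and Cpr, in normalized counts per kilobase of coding sequence (log scale). Genes are ordered from high to low and coloured by clan, and grey lines run from the lowest to the highest of the 4 group means. Levels run from 11790 (Cyp313a1) to 13.7 (Cyp304a1), and the longest grey line is that of Cyp4d1.

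The first question was how the family changed between youth and midlife in each genotype. More members rose than fell in both. In chm/+ heads 21 of the 77 rose (27.3%) and 4 fell (5.19%), against 8.63% of all genes that rose and 7.36% that fell; the median log2 change was 0.18 over the members and -0.01 over all genes. In wild-type heads 23 rose (29.9%) and 4 fell (5.19%), against 12.4% of all genes up and 11.3% down, with a median of 0.30 over the members and -0.02 over all genes. 57 members had a positive change in chm/+ and 60 in wild type. With the column set as a term, 23 rose and 8 fell in chm/+ (11.7% of all genes up and 10.7% down), and 34 rose and 5 fell in wild type (15.8% and 15.7%). Within the first set alone 28 members were called in chm/+ and 41 in wild type, against 19.4% and 32.2% of all genes. Within the second set the counts were 6 and 6, against 3.71% and 4.15% of all genes. Calls were chosen on these same 20 libraries, so agreement within the sets or with the set term is no separate support. All 25 members called in chm/+ and all 27 called in wild type had the same sign in both sets and were also called with the set term. That term added 6 calls in chm/+ (Cyp4p1 and Cyp6a9 up, and Cyp12b2, Cyp313a1, Cyp4d20 and Cyp6d5 down) and 12 in wild type (Cyp12a4, Cyp318a1, Cyp4ac1, Cyp4ac2, Cyp6a14, Cyp6a20, Cyp6a23, Cyp6t3, Cyp9b1, Cyp9f2 and Cyp9f3Psi up, and Cyp12b2 down). Unless the set term is named, calls in the text are those without it. Counts for the clans, runs and lists below are to be read beside the shares of all genes without the set term.

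The 2 age comparisons share no library, and 14 members rose in both, which is 66.7% of those that rose in chm/+ and 60.9% of those in wild type. Over all genes these shares were 76.7% and 53.4%. Cyp4c3 and Cyp305a1 fell in both, and 0 members, like 0 of all 9831 genes, were called in opposite directions. Across the 77 members, the changes in chm/+ and wild type were related by Pearson's r = 0.573 and Spearman's rho = 0.708, where members are not independent replicates; over all 9831 genes the values were 0.827 and 0.739. Cyp4g1, described below, is the member farthest from the line of equal change.

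**Figure D3:**
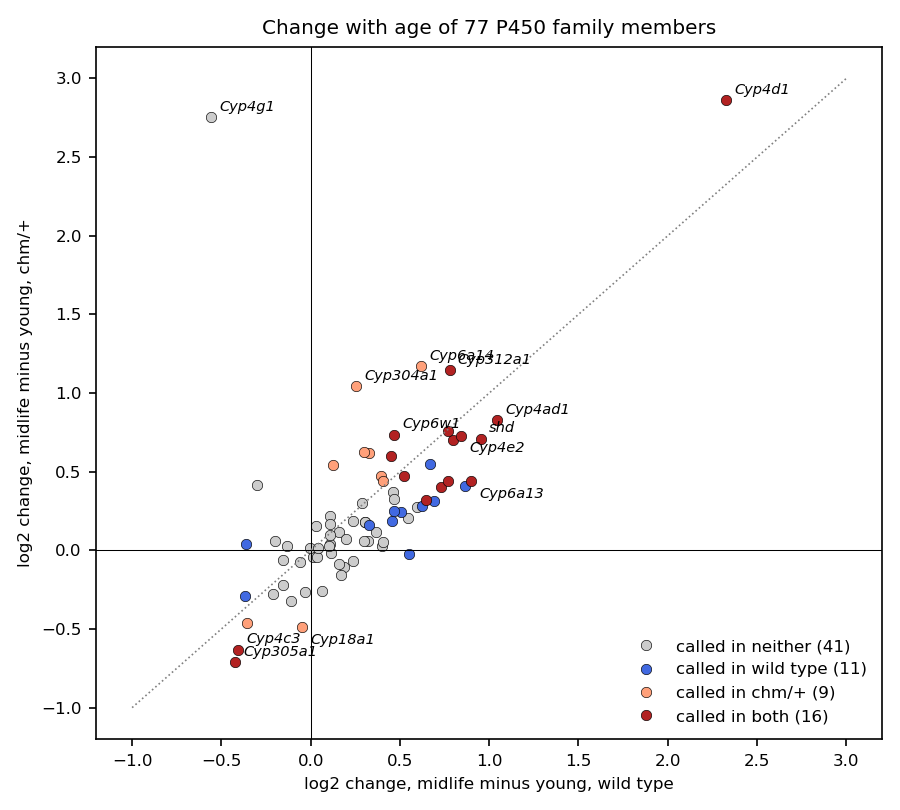
Log2 change with age (midlife minus young) of each of the 77 members in wild type (horizontal axis) and in chm/+ (vertical axis); colours show in which genotype a member was called, and the dotted line marks equal change. 16 members were called in both genotypes, 9 in chm/+ and 11 in wild type alone by the threshold, and 41 in neither; Cyp4d1 lies far from the rest on the wild-type axis (2.33), and on the chm/+ axis (2.86) just above Cyp4g1 (2.75), which was not called.

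In clan 4, 8 of 28 members rose and 1 fell with age in chm/+, against 10 and 2 in wild type. Among all genes 8.63% rose and 7.36% fell in chm/+, and 12.4% and 11.3% in wild type. Cyp4d1, a gene of the Cyp4 family, showed the largest change of the called members in both genotypes. The values of Cyp4d1 were 337, 428, 379, 197 and 281 in midlife chm/+ heads, against values between 16.1 and 39.99, with a median of 34.7, in young chm/+ heads. The Cyp4d1 counts were 283, 253, 197 and 253 in midlife wild-type heads, against 34.3, 51.8, 47.9, 24.7 and 31.7 in young wild-type heads. Every midlife library lay above every young one of either genotype. By group means, midlife was 10.2 times the young level in chm/+ and 6.46 times in wild type. The log2 change was 2.86 (SE 0.19, adjusted p = 1.31e-08) in chm/+ and 2.33 (SE 0.21, adjusted p = 2.1e-07) in wild type. The first set alone gave 3.2 in chm/+ and 2.26 in wild type, and the second set alone 2.61 and 2.48.

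Cyp312a1 was a low gene that rose in both genotypes. Cyp312a1 stood at 67.0, 74.9, 65.2, 61.5 and 68.0 in midlife chm/+ heads, against values between 16.2 and 30.1, with a median of 23.0, in young chm/+ heads. The values of Cyp312a1 were 28.3, 34.9, 46.3 and 32.4 in midlife wild-type heads, against 7.65, 18.2, 16.9, 14.9 and 15.7 in young wild-type heads. Midlife and young libraries did not overlap in chm/+ or in wild type. Midlife minus young on the log2 scale was 1.15 (SE 0.12, adjusted p = 1.71e-06) in chm/+ and 0.78 (SE 0.13, adjusted p = 0.000274) in wild type.

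Cyp4d8 rose as well. The Cyp4d8 counts were 779, 932, 1047, 693 and 1143 in midlife chm/+ heads, against values between 586 and 814, with a median of 645, in young chm/+ heads. Cyp4d8 stood at 847, 898, 875 and 908 in midlife wild-type heads, against 448, 511, 455, 612 and 552 in young wild-type heads. The lowest midlife chm/+ libraries lay within the young range, whereas the wild-type groups did not overlap. Its log2 change was 0.44 (SE 0.12, adjusted p = 0.0118) in chm/+ and 0.77 (SE 0.13, adjusted p = 0.00022) in wild type. The other clan 4 members that rose in both genotypes were Cyp4ad1 (log2 change 0.83 in chm/+ and 1.04 in wild type), Cyp4ac3 (0.76 and 0.77), Cyp4e2 (0.73 and 0.84) and Cyp313a4 (0.60 and 0.45). Cyp313b1 rose in chm/+ (0.62, against 0.32 in wild type, adjusted p = 0.17). Cyp4e3 (0.87), Cyp4p1 (0.67) and Cyp4s3 (0.45) rose in wild type, with 0.41, 0.55 and 0.19 in chm/+, where the set term made Cyp4p1 a call (adjusted p = 0.0196). Cyp4e3 is known for a part in permethrin tolerance.

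Cyp4c3 fell in both genotypes. The values of Cyp4c3 were 125, 121, 131, 107 and 117 in midlife chm/+ heads, against values between 163 and 221, with a median of 196, in young chm/+ heads. The Cyp4c3 counts were 112, 119, 160.3 and 111 in midlife wild-type heads, against 174, 174, 179, 159 and 163 in young wild-type heads. In chm/+ all midlife libraries lay below all young ones, and in wild type the library 2uo1 alone reached into the young range. Its log2 change was -0.63 (SE 0.09, adjusted p = 0.000106) in chm/+ and -0.41 (SE 0.10, adjusted p = 0.00708) in wild type. Cyp4d14 fell in wild type (log2 change -0.36, adjusted p = 0.011) and stood at 0.04 in chm/+ (adjusted p = 0.845).

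**Figure D4:**
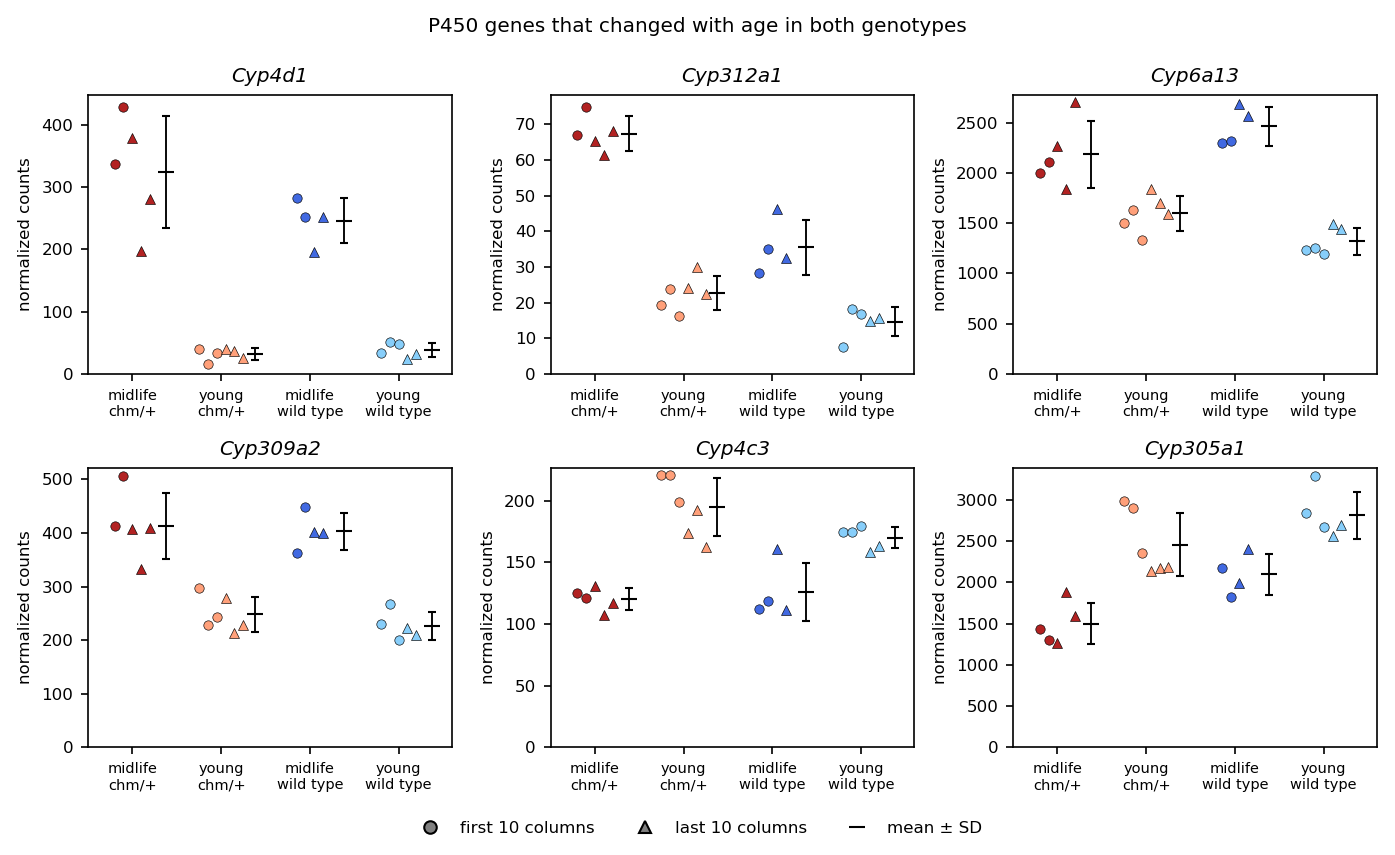
Normalized counts of 6 P450 genes called with age in both genotypes, by library and group; each vertical axis starts at 0, circles are libraries of the first 10 columns, triangles those of the last 10, and bars give mean ± SD. Cyp4d1, Cyp312a1, Cyp6a13 and Cyp309a2 stand higher at midlife than in young heads in both genotypes, and Cyp4c3 and Cyp305a1 lower.

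In clan 3, 10 of 34 members rose and 1 fell with age in chm/+, against 11 and 1 in wild type. The all-gene shares were again 8.63% up and 7.36% down in chm/+, and 12.4% and 11.3% in wild type. Cyp6a13 had the second smallest p in wild type. Cyp6a13 stood at 1999, 2108, 2266, 1841 and 2703 in midlife chm/+ heads, against values between 1328 and 1837, with a median of 1612, in young chm/+ heads. The values of Cyp6a13 were 2294, 2313, 2689 and 2566 in midlife wild-type heads, against 1235, 1250.0, 1189, 1491 and 1437 in young wild-type heads. The groups did not overlap in either genotype, although the lowest midlife chm/+ library stood only just above the highest young one. The log2 change was 0.44 (SE 0.10, adjusted p = 0.0033) in chm/+ and 0.90 (SE 0.11, adjusted p = 5.94e-06) in wild type; the difference between them was -0.45 (adjusted p = 0.364). Cyp309a2 rose by similar amounts. The Cyp309a2 counts were 412, 506, 407, 333 and 409 in midlife chm/+ heads, against values between 213 and 297, with a median of 236, in young chm/+ heads. Cyp309a2 stood at 362, 448, 402 and 399 in midlife wild-type heads, against 230.0, 268, 200.5, 224 and 209 in young wild-type heads. All midlife libraries lay above all young ones. Its log2 change was 0.70 (SE 0.10, adjusted p = 8.97e-05) in chm/+ and 0.80 (SE 0.11, adjusted p = 4.56e-05) in wild type.

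Cyp28a5 belongs to a family whose members in Drosophila mettleri respond to cactus alkaloids. The values of Cyp28a5 were 4073, 4394, 4511, 3836 and 6039.8 in midlife chm/+ heads, against values between 3072 and 3793, with a median of 3436, in young chm/+ heads. The Cyp28a5 counts were 4191, 5156, 5061 and 4567 in midlife wild-type heads, against 2464, 2802, 2457, 3359 and 3293 in young wild-type heads. Midlife and young libraries did not overlap in either genotype. On the log2 scale the change was 0.40 (SE 0.11, adjusted p = 0.0165) in chm/+ and 0.73 (SE 0.12, adjusted p = 0.000263) in wild type. The chm/+ call was lost without CHMo5 (adjusted p = 0.0555). Cyp6w1, which has been linked to DDT resistance, rose by 0.74 in chm/+ and 0.47 in wild type.

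Cyp6a22 heads a run of neighbouring P450 genes on arm 2R. Cyp6a22 stood at 1123, 1226, 1161, 922 and 1137 in midlife chm/+ heads, against values between 806 and 1070.4, with a median of 873, in young chm/+ heads. The values of Cyp6a22 were 1178, 1084, 1203 and 1170.2 in midlife wild-type heads, against 736, 781, 644, 800.3 and 726 in young wild-type heads. The young chm/+ library CHMy2 reached into the midlife range, and the wild-type groups were apart. Its log2 change was 0.32 (SE 0.08, adjusted p = 0.00934) in chm/+ and 0.64 (SE 0.09, adjusted p = 3.96e-05) in wild type. The run holds 9 genes in the annotation, of which 8 were measured. In chm/+ 1 of the 8 rose (Cyp6a22), with changes of -0.16 to 0.32, and in wild type 5 rose (Cyp6a22, Cyp6a9, Cyp6a8, Cyp317a1 and Cyp6a17), with changes of 0.17 to 0.69. The set term added Cyp6a9 in chm/+ and Cyp6a20 and Cyp6a23 in wild type. All 8 had a smaller change in chm/+ than in wild type, by 0.17 to 0.57 on the log2 scale; none of these differences was called. Cyp6a17 is known for a part in temperature preference, and Cyp6a8 is inducible by phenobarbital and caffeine. Neighbouring genes may share more than their position, so the 8 are not independent observations.

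The remaining clan 3 members that rose in chm/+ were Cyp6a14 (1.17, with its values below), Cyp6g2 (0.62), Cyp6a15Psi (0.54), Cyp6t3 (0.47) and Cyp9b1 (0.44), which stood at 0.62, 0.30, 0.12, 0.39 and 0.40 in wild type and were not called there. With the set term Cyp6a14, Cyp6t3 and Cyp9b1 were called in wild type too (adjusted p = 0.0374, 0.038 and 0.00606). Cyp6t3 is known from larval ecdysone production. Cyp6d4 (0.51) and Cyp9h1 (0.47) rose in wild type, with 0.25 and 0.25 in chm/+. Cyp28c1 fell in chm/+ (-0.46, against -0.36 in wild type, adjusted p = 0.0871), and Cyp6v1 fell in wild type (-0.37, against -0.29 in chm/+, adjusted p = 0.0807).

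In clan 2, 1 of 4 members rose and 2 fell with age in chm/+, and 0 rose and 1 fell in wild type. These are too few members to set against the all-gene shares (8.63% up and 7.36% down in chm/+, 12.4% and 11.3% in wild type). Cyp305a1 fell in both. The Cyp305a1 counts were 1439, 1304, 1269, 1884 and 1593 in midlife chm/+ heads, against values between 2137 and 2982, with a median of 2271, in young chm/+ heads. Cyp305a1 stood at 2175, 1823, 1985 and 2397 in midlife wild-type heads, against 2842, 3284, 2670.3, 2563 and 2688 in young wild-type heads. Midlife libraries lay below young ones without overlap in each genotype. With age its log2 change was -0.71 (SE 0.11, adjusted p = 0.000227) in chm/+ and -0.42 (SE 0.13, adjusted p = 0.019) in wild type. The wild-type call was lost without 2uo5 or without 2uy2, with an adjusted p of up to 0.0807.

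Cyp304a1, the lowest P450 gene per kilobase, rose in chm/+. The values of Cyp304a1 were 45.3, 57.4, 38.2, 34.0 and 31.0 in midlife chm/+ heads, against values between 6.31 and 19.1, with a median of 12.4, in young chm/+ heads. The Cyp304a1 counts were 22.2, 28.5, 16.9 and 4.59 in midlife wild-type heads, against 10.7, 13.4, 6.44, 19.0 and 10.2 in young wild-type heads. The chm/+ groups were apart and the wild-type groups overlapped. The fitted log2 change was 1.04 (SE 0.19, adjusted p = 0.000621) in chm/+ and 0.26 (SE 0.21, adjusted p = 0.429) in wild type, where it was not called.

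The enzymes encoded by shd and Cyp18a1 act at opposite ends of the active hormone's life. shd encodes the hydroxylase that turns ecdysone into 20-hydroxyecdysone, and it is a low gene in these heads. shd stood at 45.4, 58.5, 50.3, 36.2 and 68.9 in midlife chm/+ heads, against values between 21.3 and 44.3, with a median of 22.7, in young chm/+ heads. The values of shd were 72.4, 32.8, 73.8 and 59.4 in midlife wild-type heads, against 14.1, 29.7, 11.99, 32.8 and 30.1 in young wild-type heads. A single library of each genotype crossed the gap: CHMy1 stood at 44.3 among young chm/+ libraries of 21.3 to 24.4, and 2uo5 at 32.8 in midlife wild type, just under the highest young library. The log2 change was 0.71 (SE 0.20, adjusted p = 0.0173) in chm/+ and 0.95 (SE 0.22, adjusted p = 0.00333) in wild type. The chm/+ call was lost without CHMo5 (adjusted p = 0.057).

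Cyp18a1 encodes the enzyme that inactivates 20-hydroxyecdysone. The Cyp18a1 counts were 595, 432, 446, 699.8 and 431 in midlife chm/+ heads, against values between 559 and 936, with a median of 749, in young chm/+ heads. Cyp18a1 stood at 727, 474, 636 and 781 in midlife wild-type heads, against 628, 723, 614, 616 and 759 in young wild-type heads. The groups overlapped in both genotypes. Its log2 change with age was -0.49 (SE 0.15, adjusted p = 0.0342) in chm/+, where it fell, and -0.05 (SE 0.17, adjusted p = 0.885) in wild type, where it was not called. The chm/+ call was lost without any 1 of 6 libraries (CHMo3, CHMo5, CHMo11, CHMy2, CHMy3 or CHMy4), with an adjusted p of up to 0.0987. Of 13 measured genes for the ecdysone receptor and its early targets, 1 fell with age in each genotype, the nuclear receptor gene Eip78C (-0.39, adjusted p = 0.00294 in chm/+ and -0.62, adjusted p = 9.37e-05 in wild type), and 0 rose.

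The mitochondrial clan had 2 of 10 members up and 0 down with age in each genotype, shd and Cyp12c1. Beside this, 8.63% of all genes rose and 7.36% fell in chm/+, and 12.4% and 11.3% in wild type. The set term added Cyp12b2, lower at midlife in both genotypes, and Cyp12a4, higher at midlife in wild type. Cyp12c1 rose by 0.47 in chm/+ (adjusted p = 0.0474) and 0.52 in wild type (adjusted p = 0.035), and both calls were weak: in chm/+ it was lost in 13 of the 20 fits that left out 1 library (without any chm/+ library other than CHMo12, CHMy1 and CHMy11, or without 2uo1, 2uo2, 2uo5, 2uy2 or 2uy3), with an adjusted p of up to 0.138. In wild type it was lost without 2uo1, 2uo2, 2uo5, 2uy1, 2uy2 or 2uy3, up to 0.115.

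Calls near the threshold depended on single libraries. In chm/+ 18 of the 25 calls held in each of the 20 fits without 1 library. Besides those already given, Cyp28c1 was lost without CHMo3 or CHMy4 (up to 0.0584), Cyp9b1 in 6 fits (up to 0.114) and Cyp6a15Psi in 8 (up to 0.0936), each time without a chm/+ library. In wild type 16 of 27 held. Cyp6d4 and Cyp6a17 were lost without 2uo1 (adjusted p = 0.051 and 0.0725) and Cyp317a1 without 2uo2 (0.0619). Cyp4p1 was lost without 2uo1, 2uo5 or 2uy3 (up to 0.087) and Cyp313a4 without 2uo1, 2uy3 or 2uy5 (up to 0.106). Cyp4e3 was lost in 5 fits (up to 0.0884), Cyp6v1 in 5 (up to 0.111), Cyp6w1 in 5 (up to 0.142) and Cyp9h1 in 6 (up to 0.0937), each time without a wild-type library, 2uo1, 2uy2 and 2uy3 among them for all 4. All of these kept their direction.

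The second question was where chm/+ heads differed from wild type. Few members were called. In young heads 1 of the 77 was higher in chm/+ (1.30%, against 0.895% of all genes) and 3 were lower (3.90%, against 0.559%). At midlife 2 were higher (2.60%, against 0.712%) and 2 lower (2.60%, against 1.24%). These comparisons share the libraries of the age comparisons. The members called lower in chm/+ are Cyp6a2 and the neighbours Cyp6a14 and Cyp6a15Psi. Other Cyp6a genes did not share this direction in young heads. In the run of Cyp6a22, 8 of 8 measured genes had a positive difference in young heads and 2 at midlife, with 0 called.

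Cyp6a2 metabolizes insecticides and is overexpressed in DDT-resistant strains. The values of Cyp6a2 were 535, 381, 369, 431 and 455 in midlife chm/+ heads, against 1403, 1458, 1538 and 1924 in midlife wild-type heads. Cyp6a2 had values between 123 and 561, with a median of 365, in young chm/+ heads, against 1824, 2794, 2041, 1773 and 1459.9 in young wild-type heads. No chm/+ library reached the lowest wild-type one at either age. By group means the chm/+ level was 27.5% of wild type at midlife and 18.2% in young heads. The log2 difference was -1.83 (SE 0.31, adjusted p = 0.00135) at midlife and -2.54 (SE 0.28, adjusted p = 1.56e-05) in young heads. The first set alone gave -1.63 at midlife (adjusted p = 0.0534) and -2.4 in young heads (adjusted p = 0.00414), and the second set alone -2.01 (adjusted p = 0.0896) and -2.59 (adjusted p = 0.0323).

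Cyp6a14 lay in the same direction. Cyp6a14 stood at 198, 191, 188, 172 and 281 in midlife chm/+ heads, against 493, 667, 629 and 562 in midlife wild-type heads. Cyp6a14 had values between 31.9 and 128, with a median of 92.5, in young chm/+ heads, against 356, 435, 349.5, 350.2 and 396 in young wild-type heads. The chm/+ libraries lay below the wild-type ones at both ages, and CHMo5 stood above the other midlife chm/+ libraries. Means were 35.0% of wild type at midlife and 23.4% in young heads. The log2 difference was -1.46 (SE 0.23, adjusted p = 0.000633) at midlife and -2.01 (SE 0.20, adjusted p = 5.67e-06) in young heads. With age it rose in chm/+ by 1.17 (SE 0.20, adjusted p = 0.000505) and stood at 0.62 in wild type (adjusted p = 0.0554, and 0.0374 with the set term), and the difference between these was not called (0.55, adjusted p = 0.832).

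Cyp6a15Psi, listed under a pseudogene name, neighbours Cyp6a14 and was lower in young chm/+ heads. The Cyp6a15Psi counts were 19.6, 22.6, 15.7, 30.6 and 24.4 in midlife chm/+ heads, against 35.8, 41.4, 60.0 and 45.3 in midlife wild-type heads. Cyp6a15Psi had values between 3.44 and 19.1, with a median of 10.3, in young chm/+ heads, against 28.02, 29.6, 41.2, 55.1 and 52.5 in young wild-type heads. The genotypes did not overlap at either age. The log2 difference was -0.70 (SE 0.19, adjusted p = 0.0782) at midlife, which was not called (adjusted p = 0.039 with the set term, a call), and -1.11 (SE 0.17, adjusted p = 0.00107) in young heads. Cyp6a13, the next P450 gene of the same run, was not called with genotype, at -0.18 at midlife (adjusted p = 0.459) and 0.27 in young heads (adjusted p = 0.179). Reads of closely related genes may be split between copies by the counting, which is not described in the sources.

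**Figure D5:**
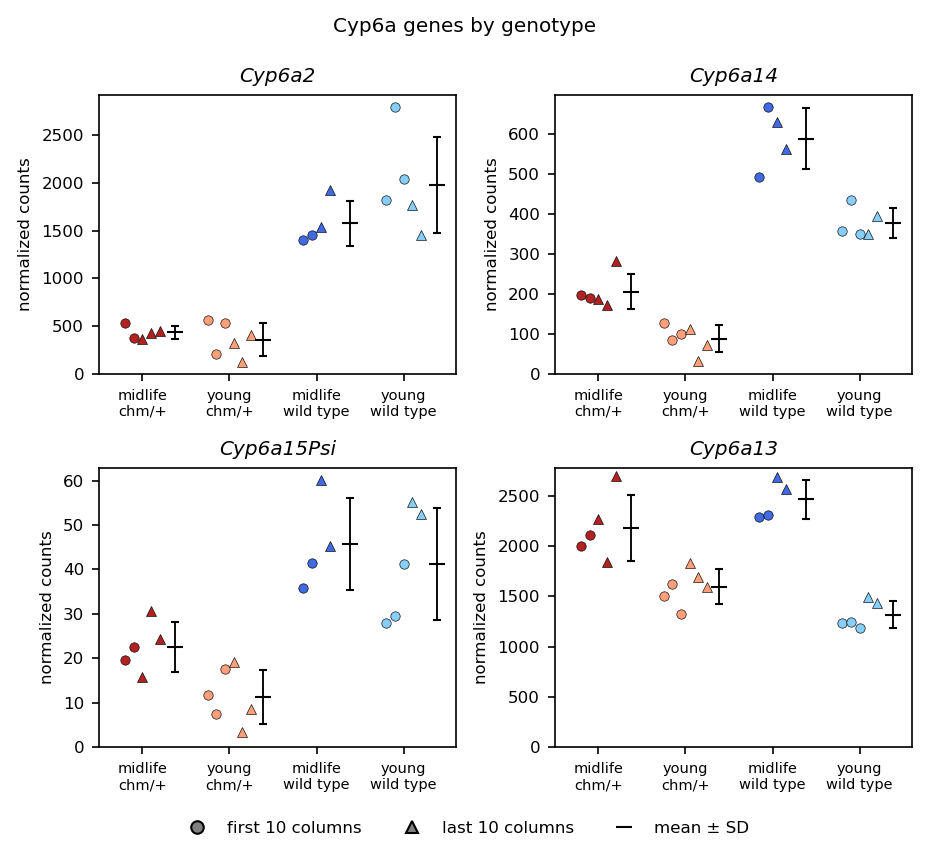
Normalized counts of 4 Cyp6a genes by library and group; each vertical axis starts at 0, circles are libraries of the first 10 columns, triangles those of the last 10, and bars give mean ± SD. Cyp6a2, Cyp6a14 and Cyp6a15Psi stand lower in chm/+ than in wild type without overlap at each age, and Cyp6a13 does not separate by genotype.

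The members that stood higher in chm/+ differed by less. Cyp312a1, whose values are given above, was higher at midlife (61.5 to 74.9 in chm/+, against 28.3 to 46.3 in wild type), 0.72 (SE 0.13, adjusted p = 0.00328). In young heads its difference was 0.35 (adjusted p = 0.156). Cyp304a1 was higher at midlife by 0.82 (SE 0.21, adjusted p = 0.0464), with 31.0 to 57.4 in chm/+, against 4.59 to 28.5 in wild type, and the call was lost in 14 of the 20 fits without 1 library, with an adjusted p of up to 0.191. It held without CHMo5, CHMy1, CHMy3, 2uo5, 2uy3 or 2uy4.

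Cyp309a1 was higher in young chm/+ heads. The values of Cyp309a1 were 4354, 4725, 5054, 4780.1 and 3518 in midlife chm/+ heads, against 2861, 3180.1, 3358 and 3560.1 in midlife wild-type heads. Cyp309a1 had values between 2954 and 4444, with a median of 3528, in young chm/+ heads, against 2166, 2759, 2553, 3002 and 2823 in young wild-type heads. The young groups overlapped, as did those at midlife. The log2 difference was 0.46 (SE 0.12, adjusted p = 0.0577) at midlife, not called (adjusted p = 0.0364 with the set term, a call), and 0.45 (SE 0.11, adjusted p = 0.0438) in young heads, a call lost in 13 of the 20 fits without 1 library, with an adjusted p of up to 0.166. It held without CHMo5, CHMo11, CHMo12, CHMy3, 2uo2, 2uy4 or 2uy5.

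The number of members called with genotype moved with the treatment of the column sets. With the set as a term, 9 members were higher and 4 lower in chm/+ at midlife, and 16 higher and 3 lower in young heads, against 1.57% of all genes up and 2.06% down at midlife and 2.65% up and 1.35% down in young heads. All calls made without the term were among them. Outside the Cyp12 genes, those added at midlife were Cyp309a1, Cyp4e1 and Cyp4p3 (higher) and Cyp6a15Psi and Cyp305a1 (lower), and those added in young heads, all higher, were Cyp313a1, Cyp4e1, Cyp4e2, Cyp4e3, Cyp4p3, Cyp6a17, Cyp6a23, Cyp6a8, Cyp6d4 and Cyp6d5. The first set alone gave 4 at midlife and 15 in young heads, against 2.9% and 2.95% of all genes. The second set alone gave 0 and 2, against 0.173% of all genes at each age. Without CHMy4 or without 2uy4, 8 members were called in young heads, and without 2uy5, 7. The all-gene calls of these 3 fits are not given here, so their counts are not read as particular to the members. The 7 Cyp12 genes of the mitochondrial clan were all higher in chm/+ at both ages, by 0.05 to 0.59 at midlife and 0.18 to 0.72 in young heads, with 0 called by limma (4 at an unadjusted p under 0.05 at midlife and 6 in young heads). With the set term Cyp12b2, Cyp12d1-d, Cyp12d1-p and Cyp12e1 were called at both ages, and Cyp12c1 in young heads. Cyp12d1-d and Cyp12d1-p are near-identical copies, with a ratio of 0.969 to 0.998 in every library, and cannot be counted as separate observations.

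Whether ageing acted differently in chm/+ was asked by the difference between the 2 age changes. It was called for 0 of the 77 members by limma, against 0.356% of all genes, with 6 members at an unadjusted p under 0.05 (655 genes). The lowest adjusted p was 0.31, for Cyp6a8 (-0.57): its change with age was -0.02 in chm/+ (SE 0.11, adjusted p = 0.937) and 0.55 in wild type (SE 0.13, adjusted p = 0.00367). The difference was negative in 54 of the 77, with a median of -0.11 over the members and 0.01 over all genes. Of the 14 members that rose in both genotypes, 10 had the larger change in wild type (71.4%), as did 69.7% of the 650 genes of the whole table that rose in both. Array weights gave 2 calls, and no other scaling, filter, addend or set treatment gave any.

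By known roles, 17 of 19 genes listed for insecticide or drug metabolism or for induction by phenobarbital or caffeine were measured. They had 5 up and 0 down with age in chm/+, and 7 up and 0 down in wild type, with medians of 0.25 and 0.37. The all-gene shares were 8.63% up and 7.36% down in chm/+, and 12.4% and 11.3% in wild type. Cyp6a2 was the member of the list called with genotype; the set term added Cyp12d1-d and Cyp12d1-p at both ages and Cyp4e2, Cyp6a8, Cyp6d4 and Cyp6d5 in young heads. The 4 genes listed for behaviour or sense organs (Cyp6a20, linked to male aggression, Cyp4d21, linked to courtship and mating, Cyp303a1, linked to bristle development, and Cyp308a1) were not called in any comparison, although with the set term Cyp6a20 was called with age in wild type (adjusted p = 0.00849).

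The 2 Cyp4g genes were not called either. Cyp4g1 makes cuticular hydrocarbons in oenocytes, a cell type known chiefly from the abdomen, and its level was close to all or none: it ran from 2.04 to 796, with 5 libraries under 15 and the others at 58.3 or more. Cyp4g1 stood at 398, 677, 796, 501 and 702 in midlife chm/+ heads, against values between 2.04 and 500.0, with a median of 129, in young chm/+ heads. The values of Cyp4g1 were 58.3, 700.4, 324 and 9.31 in midlife wild-type heads, against 300.7, 5.39, 269.8, 556 and 391 in young wild-type heads. The 5 low libraries were 3 young chm/+, 1 midlife wild type and 1 young wild type. The log2 change with age was 2.75 (SE 1.05, adjusted p = 0.0848) in chm/+ and -0.56 (SE 1.16, adjusted p = 0.792) in wild type. Desat1, the 1 of 7 oenocyte symbols that matched, was not called.

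Few partners of the P450 enzymes were called, but their lists of 5 to 8 genes are too short to set against the all-gene shares. With age 8.63% of all genes rose and 7.36% fell in chm/+, and 12.4% and 11.3% in wild type. With genotype 0.895% were higher and 0.559% lower in young heads, and 0.712% and 1.24% at midlife. For age by genotype 0.356% were called. Cpr, the shared electron donor, stood within a narrow range. The Cpr counts were 6890.4, 7038, 8199.7, 7492 and 7339 in midlife chm/+ heads, against values between 7158 and 8279, with a median of 7538, in young chm/+ heads. Cpr stood at 6805, 6449, 7209 and 7899 in midlife wild-type heads, against 6782, 7056, 6429, 7441 and 7392 in young wild-type heads. All groups overlapped, with log2 changes with age of -0.04 in chm/+ (adjusted p = 0.78) and 0.01 in wild type (adjusted p = 0.932). Of 5 measured redox partners, Cpr included, and of 7 genes for haem synthesis and breakdown, 0 were called in any comparison by limma, with at most 1 gene of each list at an unadjusted p under 0.05 in a comparison. Their changes with age ran from -0.13 to 0.15 in chm/+ and from -0.17 to 0.22 in wild type for the redox partners, and from -0.28 to 0.02 and from -0.27 to 0.19 for the haem genes. Of 8 regulators of the response to foreign compounds, 1 was called: cnc, the fly counterpart of the Nrf2 factors, rose with age in chm/+ (0.31, adjusted p = 0.0322).

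Glutathione transferases, which act on the products of oxidation, were measured for 30 genes. With age 3 rose and 3 fell in chm/+, against 8.63% of all genes up and 7.36% down. In wild type 10 rose and 3 fell, against 12.4% and 11.3%. GstE14, known for a role in ecdysteroid synthesis, fell in both (-0.85, adjusted p = 3.24e-07 in chm/+ and -0.78, adjusted p = 2.17e-06 in wild type). GstD2 rose in both (1.42, adjusted p = 0.00149 in chm/+ and 1.37, adjusted p = 0.00309 in wild type). With genotype, GstE1 (0.38, adjusted p = 0.00085), GstE5 (0.76, adjusted p = 0.00609) and GstT2 (0.42, adjusted p = 0.0236) were higher in young chm/+ heads, and at midlife 0 were higher. GstE11 was lower in chm/+ at both ages, at -0.68 at midlife (adjusted p = 0.00271) and -0.45 in young heads (adjusted p = 0.0471). In young heads 26 of the 30 had a positive difference, against 49.8% of all genes. Genotype calls over all genes were 0.895% higher and 0.559% lower in young heads, and 0.712% and 1.24% at midlife.

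Fat body, a tissue of the head that holds many P450 transcripts, was followed by 8 measured of 12 markers. Their summed level ran from 84192 to 314924 in midlife chm/+, against 213264 to 528591 in young chm/+, and from 63763 to 187062 in midlife wild type, against 173340 to 305897 in young wild type. Most of this sum is Lsp2, with means of 146600 in midlife and 335400 in young chm/+ heads. The markers did not move together: 6 of the 8 had a positive change with age in each genotype, with medians of 0.24 in chm/+ and 0.40 in wild type. With age 1 marker rose and 2 fell in chm/+ (Lsp1alpha up, Lsp1beta and Lsp2 down), and 2 rose and 1 fell in wild type (Lsp1alpha and Lip4 up, Lsp1beta down). In whole heads fewer cells of a type and less RNA per cell cannot be told apart, and the part of these markers in the P450 changes was not tested. Of 12 gut symbols 2 matched and of 7 Malpighian tubule symbols 4, with 0 called in any comparison; 0 of the 7 testis and accessory gland symbols matched.

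By position, 37 members lie in runs of neighbouring P450 genes in the annotation and 40 do not. With age, 12 and 0 in runs rose and fell in chm/+, against 9 and 4 outside runs; in wild type the counts were 12 and 1 in runs and 11 and 3 outside. On arm 2R, which holds 32 members, 10 rose and 0 fell in chm/+ and 11 rose and 0 fell in wild type, and on the X chromosome, with 14 members, 1 rose and 2 fell in chm/+ and 2 rose and 2 fell in wild type. On arm 3L, with 6 members, 4 rose and 1 fell in each genotype. On arm 2L, with 13, 3 rose and 0 fell in chm/+ and 4 rose and 0 fell in wild type. On arm 3R, with 12, 3 rose and 1 fell in chm/+ and 2 rose and 1 fell in wild type. These differences between positions were not tested. For comparison, 8.63% of all genes rose and 7.36% fell in chm/+, and 12.4% rose and 11.3% fell in wild type. In all, 38 members were called in at least 1 comparison and 39 in none.

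Exons of 18 members overlap those of another gene in the annotation, all but Cyp6u1 on the opposite strand, and the sources do not say whether strand was used in counting. Cyp317a1, Cyp4d14, Cyp4s3, Cyp6a9, Cyp6g2, Cyp6t3, Cyp6v1 and Cyp9b1 are the called members among them, and their reads cannot be told apart from those of the partner if strand was not used.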

How the data were processed

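Polyadenylated RNA of pooled male heads was sequenced as 50 bp single reads, per the labels' protocols. The submitters' processing notes name TopHat2 2.0.5, edgeR (no version) and the build BDGP5, and no counter, annotation or filter is named in the labels. The deposited values are signal: normalized counts that the authors scaled to a common library size. They are not whole. With a tolerance of 0.02, a fitted step made at best 7.07% to 77.5% of a library's low values whole, so reads were not recovered, depth is unknown and no counting interval is given. Within groups, pairs of libraries had r = 0.972 to 0.997 over genes.

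The log scale was log2(value + 14.48), where 14.48 is the mean column total's equivalent of 0.5 CPM. A filter of 1 CPM in 4 or more libraries removed no gene, so all 78 rows of the rule passed. One limma 3.58.1 model in R 4.3.3 with a mean per group, a mean trend and empirical Bayes moderation was fitted to all 9831 genes and 20 libraries. The 5 comparisons were midlife minus young in each genotype, chm/+ minus wild type at each age, and the difference between the age changes, each two-sided with Benjamini-Hochberg adjustment over all genes at 0.05. The model was tested on simulated data with independent values and no difference between column sets. That test cannot say how the model behaves where the column sets differ.

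The members, role lists, marker lists and tests were chosen with earlier results of these data known. Named are the members called in a comparison, the ecdysone genes and Cpr, and the 5 highest and 3 lowest per kilobase. Role-list members and called partner genes are named too. For up to 6 called members of smallest p in each comparison, values are given by library, except young chm/+ libraries (range and median). Cyp4g1 was described in full after its values were seen. Coding lengths, runs of neighbours and exon overlaps come from a BDGP6 annotation, a later build, so no coordinates are given. Alternatives were other addends, filters and scalings, array weights, the column sets, a replicate block and leaving out libraries.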

Additional observations from a re-analysis of the deposited data

Results flagged for a closer look

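In 160 pairs of a gene and a group (40 genes), 8 held 1 library far from the others of its group by Dixon's criterion; chance flags about 1 in 20 groups, which is the share found. Midlife wild-type library 2uo1 was high for 3 genes, with Cyp313a4 at 45.26 normalized counts (29.97 to 31.37 in the others), Cyp4c3 at 160.3 (111.3 to 118.8) and Cyp4d14 at 587 (489.4 to 504.2). Of these, the call of Cyp313a4 with age in wild type was lost without 2uo1. In midlife chm/+ heads CHMo5 was high for Cyp6a14, at 281.3 (171.7 to 197.9). Among young chm/+ libraries CHMy12 was high for Cyp6a17, at 207.6 (96.54 to 131.1), CHMy2 for Cyp6a22, at 1070 (806.4 to 898.9), and CHMy1 for shd, at 44.34 (21.26 to 24.38). In young wild type 2uy2 was high for Cyp28c1, at 92.0 (66.08 to 73.13). What sets these libraries apart was not tested.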

How the results depend on the processing

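The main counts of called members were 25 for age in chm/+, 27 for age in wild type, 4 for genotype at midlife, 4 for genotype in young heads and 0 for age by genotype. Other addends, no filter, equal column totals, median-of-ratios scaling, only the compared groups in the fit and the joint removal of CHMo12, CHMy2 and 2uo2 (chosen after seeing the data) kept each count within 1.5 times. Array weights gave 41 for age in wild type, 11 for genotype at midlife, 37 in young heads and 2 for age by genotype. A filter on a mean of at least 5 CPM took low members out of the fit, the called Cyp312a1, Cyp304a1 and Cyp6a15Psi among them. It gave 14 for age in chm/+, 2 for genotype at midlife and 2 in young heads. The column set as a term gave 13 at midlife and 19 in young heads for genotype. The first set alone gave 41 for age in wild type and 15 for genotype in young heads; the second set alone gave 6 for age in chm/+, 6 for age in wild type, 0 for genotype at midlife and 2 in young heads. These are counts of members only, and calls over all genes moved with the set treatment too. For array weights and the 5 CPM filter the all-gene calls are not given here. The shifts are therefore not read as particular to the members. Apart from the removal of members by the 5 CPM filter, their cause was not tested.

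Leaving out 1 library at a time gave 20 to 27 members for age in chm/+, 19 to 33 for age in wild type, 3 to 6 for genotype at midlife, 3 to 8 in young heads and 0 to 0 for age by genotype. The column number as a replicate block gave 22 and 25 for age in chm/+ and wild type, 2 for genotype at midlife, 3 in young heads and 0 for age by genotype. All-gene calls are not given here for the block or the left-out libraries, so these counts are not read as particular to the members. Of 8 pairs of midlife and young libraries with the same number, 5 correlated over 0.1 (r from -0.533 to 0.635) and 3 midlife libraries correlated best with their own number, so the numbers were not taken as pairs. Over 20 results for single genes, 605 recomputed values kept direction and call, 51 kept direction only and 0 reversed. These 20 are the up to 6 called members of smallest p in each comparison, so their stability is no separate support. Unknown depth limits what can be said of genes with low values.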
